A study of Mus musculus with 9 samples.

Results

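Livers of mice that received a high fat diet together with B-LGND2 were compared with livers of mice that received a normal diet together with vehicle. The comparison comprised all 3 high fat B-LGND2 libraries and all 3 normal diet vehicle libraries, 6 of the 9 libraries in the series. All mice were C57BL/6, and diet and treatment ran for 9 weeks before RNA was taken from whole liver. B-LGND2 is known here only by its code name, and the series title presents it as a ligand of estrogen receptor beta. The sources used here do not give the dose, the composition of the diets, sex, age or hour of collection. Both the diet and the compound differ between the groups, so their effects cannot be told apart in this comparison. Values of the 3 libraries from high fat diet with vehicle are therefore printed beside many of the results. They show where a diet-matched group without the compound lay, but both differences share the normal diet libraries and are not independent of each other. The same test called 2.99% of genes between high fat vehicle and normal diet livers. The labels give 3 mice per group, and p-values reflect only how far the samples in the fit spread. In the main test these were all 9 libraries, the 3 from high fat diet with vehicle included.

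The liver removes foreign compounds and steroids through cytochrome P450 enzymes, esterases and conjugating enzymes of hepatocytes, many of which are induced by the nuclear receptors PXR (Nr1i2) and CAR (Nr1i3). Hepatocytes also make cholesterol, under the transcription factor SREBP2, and fatty acids, under SREBP1. Kupffer cells, the resident macrophages of the liver, line the sinusoids next to specialised endothelial cells and make C1q and scavenger receptors.

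Libraries held 5778978 to 10322972 counts. Levels are counts per 1e6 counts (CPM) on scaled library sizes, and differences are log2 fold changes, high fat B-LGND2 minus normal diet vehicle. Gene models of ribosomal RNA (rRNA) took 5.51% ± 1.04 of the counts with B-LGND2, 3.42% ± 0.299 on normal diet and 1.2% ± 0.275 in high fat vehicle livers (mean ± SD, n = 3 each). An exact two-sided permutation test of the first 2 gave p = 0.1, the smallest that 3 against 3 allows. Mitochondrially encoded genes took 5.28% ± 0.736 with B-LGND2 and 6.73% ± 5.16 on normal diet, where replicate 1 alone reached 12.7% (exact permutation p = 1). Without that library the normal diet mean was 3.75%, below rather than above that with B-LGND2. Of 13 mitochondrially encoded mRNA genes, 6 had no count in any library, so these shares cover an incomplete set. Hepatocyte markers were abundant in every library, with a summed level of 10 genes between 71100 and 110000 CPM. Whether rRNA content, mitochondrial content or the GC pattern described at the end took part in the results was not tested, except where a value with the GC correction stands beside a result.

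Of 12102 genes tested, 354 (2.93%) passed edgeR's quasi-likelihood test at an adjusted p of 0.05 after Benjamini-Hochberg correction. There were 193 higher and 161 lower (1.59% and 1.33%), of which 184 and 151 were protein coding. In 353 of the 354 the values of one group lay entirely apart from those of the other, the exception being Slc15a2, named after its values were seen; over all genes tested such separation was seen in 20.5%. A change of at least 2-fold was estimated for 174 of the higher and 130 of the lower genes. Over all genes the median log2 fold change was -0.01, which the scaling of library sizes holds near 0. An unadjusted p under 0.05 was found for 19.4% of genes, and DESeq2 called 5.46%. Leaving out 1 library moved the number of genes that passed from 354 to as few as 111 (without normal diet replicate 2) or as many as 639 (without normal diet replicate 1). The other libraries that moved it by over 1.5 times were B-LGND2 replicates 1 (130) and 2 (221), normal diet replicate 3 (224) and high fat vehicle replicates 1 (234), 2 (228) and 3 (235).

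**Figure D1:**
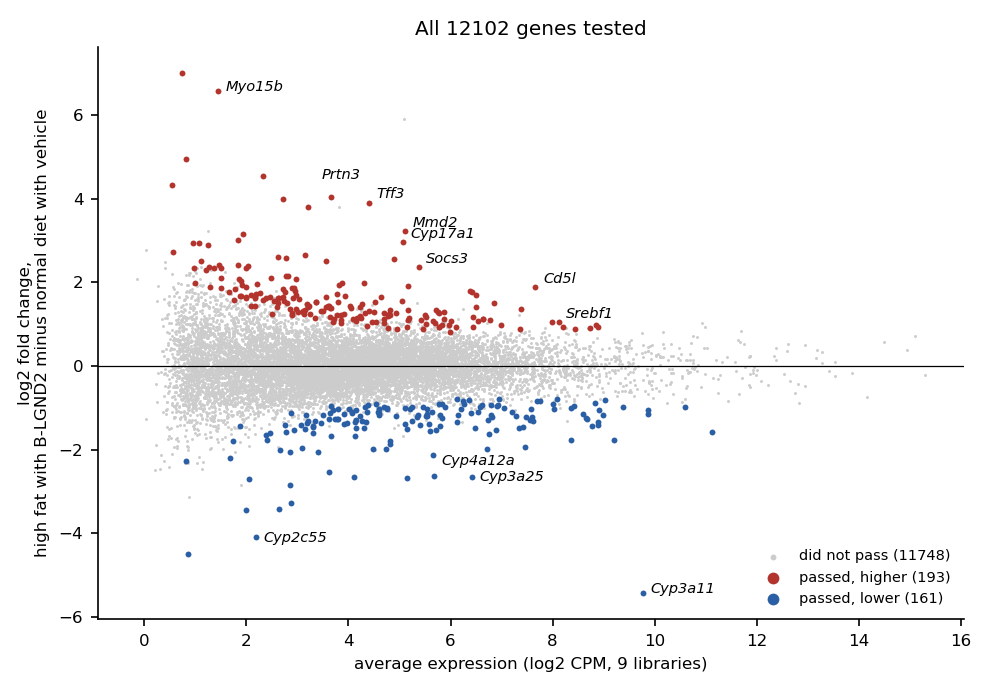
Each point is a gene, with its average level over all 9 libraries (log2 CPM, horizontal) and its log2 fold change between high fat B-LGND2 and normal diet vehicle livers (vertical). Red and blue mark the 193 higher and 161 lower genes that passed the test; Cyp3a11 at -5.43 lies far below every other gene of its level.

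Genes of drug-metabolising enzymes were lower in livers with B-LGND2. Of 25 tested members of a list of 27 xenobiotic metabolism genes, 11 were lower and 0 higher, against 1.33% lower among all genes. Like every list here, it was chosen with earlier results of these data known, so such shares are a description only. The list's median log2 fold change was -0.91, and 23 of the 25 members lay below 0. In high fat livers with vehicle the median of the same members was -0.17. With a correction for GC content and transcript length, 9 members were lower and the median was -0.83. Leaving out a library gave 7 to 11 lower members, with 7 when normal diet replicate 2 was left out.

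Cyp3a11 encodes the main hepatic mouse cytochrome P450 of the CYP3A subfamily, the family that oxidises many drugs and steroids, and showed the largest fall. Cyp3a11 (ENSMUSG00000056035, chr5:145854426-145879964) stood at 2335, 1893 and 3050.3 CPM in the normal diet libraries and at 60.9, 63.4 and 44.6 with B-LGND2. Libraries from high fat diet with vehicle had 179, 108 and 115 CPM. All 3 groups were thus separate, with B-LGND2 lowest. The mean was 43.1 times lower with B-LGND2 than on normal diet (log2 fold change -5.43, SE 0.31, adjusted p = 4.22e-08). High fat livers with vehicle differed from the same normal diet libraries by -4.18 (adjusted p = 9.7e-07). The fall held in all alternative fits, with log2 fold changes between -5.58 and -4.98.

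The promoter of Cyp3a11 is printed because no other tested gene fell as much, and that of its neighbour Cyp3a25 for comparison. The sequences lie upstream of the gene's start in RefSeq, on GRCm38.p6, and bases that GENCODE places in an exon are left out. For Cyp3a11 this leaves chr5:145879965-145880104 on the minus strand, 250 to 111 bases before the start. Capitals mark the hexamers AGTTCA and TTGACC, both found on the opposite strand, with bases 142 to 137 and 161 to 156 before the start. For Cyp3a25 the window is chr5:146009619-146009868 on the minus strand, and capitals mark TGACCTTT on the opposite strand, 178 to 171 bases before the start.
Cyp3a11: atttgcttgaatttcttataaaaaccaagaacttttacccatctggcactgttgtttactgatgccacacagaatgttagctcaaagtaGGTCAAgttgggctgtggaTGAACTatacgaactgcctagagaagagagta
Cyp3a25: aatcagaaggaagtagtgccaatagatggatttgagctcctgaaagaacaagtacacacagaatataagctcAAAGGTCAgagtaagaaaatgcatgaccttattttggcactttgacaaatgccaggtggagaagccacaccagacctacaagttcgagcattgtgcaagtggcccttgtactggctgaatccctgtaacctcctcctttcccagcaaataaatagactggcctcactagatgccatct
PXR and CAR are known to bind pairs of such hexamers. AGTTCA, read on the other strand, is contained in TGAACTTT, which was also searched. Across the 250 bases before the start, on both strands, AGTTCA was present in 3 of 23 matched list members (Abcb1a, Cyp3a11 and Ugt1a1) and in 10.6% of 8823 tested genes with a promoter entry. TTGACC was present in 3 of 23 (Cyp2c29, Cyp3a11 and Ugt2b5) and 8.01%. TGACCTTT was present in Cyp2c29, Cyp3a25 and Ugt2b5, 3 of 23, and in 1.36% of all genes. TGAACTTT was present in Abcb1a, 1 of 23, and in 1.08%. The spellings were chosen after the expression values were seen, and a match describes these letters only.

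Of 3 other Cyp3a genes tested, Cyp3a25 and Cyp3a59 were also lower, and Cyp3a13, named after its values were seen, was at -0.14 (adjusted p = 0.819). Cyp3a25 (ENSMUSG00000029630, chr5:145977194-146009618), expressed in adult liver, stood at 163, 121 and 186 CPM on normal diet, 70.4, 78.2 and 74 in high fat vehicle livers and 17.7, 30.3 and 27 with B-LGND2. As for Cyp3a11, all 3 groups were separate. Its log2 fold change was -2.65 (SE 0.25, adjusted p = 3.73e-05), beside -1.08 for high fat diet with vehicle. Cyp3a59 (ENSMUSG00000061292, chr5:146079257-146113287) fell from 13.8 ± 4.68 CPM to 1.31 ± 0.609 (mean ± SD, n = 3; log2 fold change -3.41, edgeR adjusted p = 0.00058). Both calls held without any 1 library. The Cyp2c, Cyp3a, Cyp4a, Gstm and Mup genes have near-identical neighbours, so how reads were split within each family is uncertain.

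Other enzymes of the same kind were lower with B-LGND2. Cyp2c55 (ENSMUSG00000025002, chr19:39007019-39042693) had 9.51, 8.6 and 13.8 CPM on normal diet, 2.64, 1.2 and 0.976 in high fat vehicle livers and 0.695, 0.294 and 0.833 with B-LGND2 (log2 fold change -4.10, SE 0.49, adjusted p = 0.000429). Ces2a (ENSMUSG00000055730, chr8:104734003-104741634), a carboxylesterase that cleaves ester drugs and lipids, had 171, 155 and 227, 99.9, 78.8 and 68 and 56.2, 48.4 and 36 CPM in the same order (log2 fold change -1.97, edgeR adjusted p = 0.00058). In both genes the high fat vehicle libraries lay between the other groups without overlap. Aldh1a1, which makes retinoic acid from retinal, had 670.3, 894 and 1040.1 CPM on normal diet and 250.0, 282 and 231 with B-LGND2, while high fat livers with vehicle, at 778, 600.2 and 533, overlapped the normal diet range (edgeR log2 fold change -1.77, adjusted p = 0.000861). The coumarin hydroxylase gene Cyp2a5 had a log2 fold change of -1.77 (adjusted p = 0.00364) and Ugt2b5, a glucuronosyltransferase gene, of -1.33 (adjusted p = 0.00429). The remaining list members that passed were Gsta3 at -1.06 (adjusted p = 0.029), Cyp2c29 at -1.15 (adjusted p = 0.042), Ces2c at -1.35 (adjusted p = 0.0492) and Gstm3 at -0.91 (adjusted p = 0.042), all by edgeR. High fat vehicle livers did not take the same place in each of these genes. For Ces2c they differed from normal diet by 0.07 (adjusted p = 0.919). Gstm3 stood at 91.9, 105 and 95.7 CPM on normal diet, at 22.9, 22.3 and 19.2 in high fat vehicle livers and at 64.5, 36.2 and 54.1 with B-LGND2, so the B-LGND2 libraries lay between the others. Members of this list beyond the 4 with the smallest p (Cyp3a11, Cyp3a25, Cyp2c55 and Ces2a) are named here after their values were seen, as are the macrophage genes beyond the first 4.

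The gene of the receptor PXR, Nr1i2, did not itself pass. Nr1i2 stood at 102 ± 17.4 CPM on normal diet and 74.5 ± 7.48 with B-LGND2 (mean ± SD, n = 3; log2 fold change -0.45, edgeR adjusted p = 0.236). Cyp1a2, a P450 gene controlled by the aryl hydrocarbon receptor, was at -0.52 (edgeR adjusted p = 0.244). Cyp2b9, at 0.156, 0.165 and 3.87 CPM on normal diet and 0.348, 0.736 and 0 with B-LGND2, overlapped between the groups, whereas high fat livers with vehicle had 22.8, 18.9 and 5.85.

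**Figure D2:**
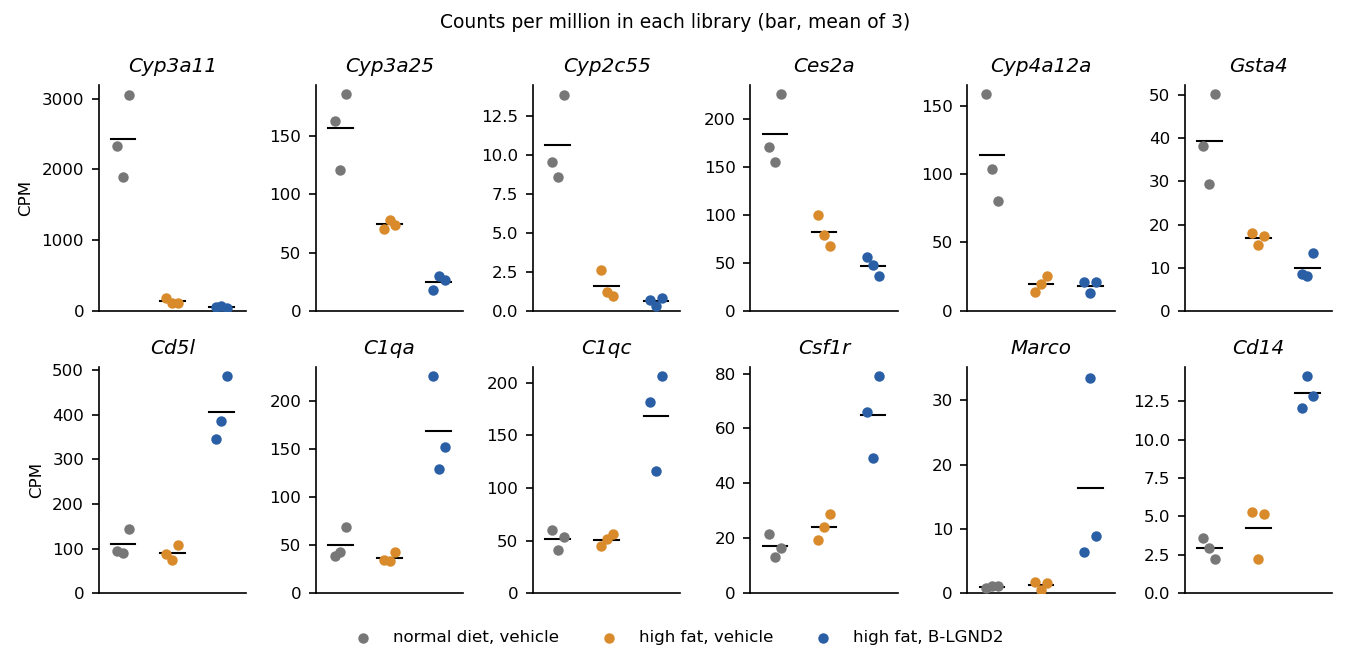
Counts per 1e6 counts (CPM, vertical, from 0 in each panel) in each of 3 libraries per group for 6 enzyme genes that fell (top) and 6 macrophage genes that rose (bottom); bars are group means. In the top row high fat vehicle libraries lie below normal diet, and in the bottom row the B-LGND2 libraries stand above both other groups.

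Several of the other largest falls were in enzymes of fatty acid, retinoid and peroxide metabolism. Cyp4a12a (ENSMUSG00000066071, chr4:115299046-115332815) makes the fatty acid 20-HETE and is expressed more in male liver. It stood at 158, 104 and 80.1 CPM on normal diet, 14, 19.4 and 25.6 in high fat vehicle livers and 21.3, 12.8 and 21.3 with B-LGND2. Both high fat groups overlapped each other and lay below every normal diet library (log2 fold change -2.62, SE 0.31, adjusted p = 0.000429; -2.53 for high fat diet with vehicle). Cyp4a12b fell by 2.64 on the log2 scale (adjusted p = 0.00131). Cyp4a10, a target of the fatty acid receptor PPAR alpha, was at -2.67 (edgeR adjusted p = 0.00919), a call that was lost without normal diet replicate 3 (adjusted p = 0.0681).

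Akr1c19, an aldo-keto reductase gene, went from 90.5 ± 33.3 to 20.7 ± 2.81 CPM (mean ± SD, n = 3; log2 fold change -2.13, edgeR adjusted p = 0.00058). Gsta4, which encodes a glutathione transferase for lipid aldehydes, stood at 38.2, 29.4 and 50.3 CPM on normal diet and at 8.46, 8.09 and 13.3 with B-LGND2 (log2 fold change -1.99, adjusted p = 0.00113). Ggh, encoding the folate enzyme gamma-glutamyl hydrolase, was at -2.20 (edgeR adjusted p = 0.0122). A pair of genes in this set had high fat vehicle levels like those of normal diet. Gpx4, encoding a lipid peroxide reductase, stood at 6.86, 11.2 and 10.7 CPM on normal diet, 9.56, 9.02 and 8.5 in high fat vehicle livers and 1.27, 2.65 and 3.16 with B-LGND2 (log2 fold change -2.04, SE 0.36, adjusted p = 0.00778), and its counts are uncertain because it has retrocopies. Mup1, a major urinary protein gene, had 7.8, 8.43 and 6.92, 12.2, 5.56 and 8.22 and 0.811, 2.21 and 2.83 CPM in that order (log2 fold change -2.02, edgeR adjusted p = 0.0198). Without normal diet replicate 2 or B-LGND2 replicate 1 the adjusted p of Mup1 was 0.0736 or 0.085.

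The RNA host gene Snhg11 had 27.9, 6.28 and 5.95 CPM on normal diet and 1.97, 0.883 and 1.17 with B-LGND2, with replicate 1 of the normal diet group well above its other replicates (log2 fold change -3.27, edgeR adjusted p = 0.00919). Clec2h, which encodes a C-type lectin, was at -2.06 (adjusted p = 0.0229), but not past the threshold without normal diet replicate 3 (0.0585), without B-LGND2 replicate 1 (0.0792) or with the GC correction (0.0655). Cyp26a1, the enzyme that clears retinoic acid, had 8.11, 20.8 and 32.5 CPM on normal diet and 1.74, 5.15 and 3.83 with B-LGND2 (log2 fold change -2.54, edgeR adjusted p = 0.045). Its call was lost without normal diet replicates 2 or 3 (adjusted p = 0.094 and 0.175), high fat vehicle replicate 2 (0.0553), or any B-LGND2 replicate (0.157, 0.0619 and 0.0889).

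**Figure D3:**
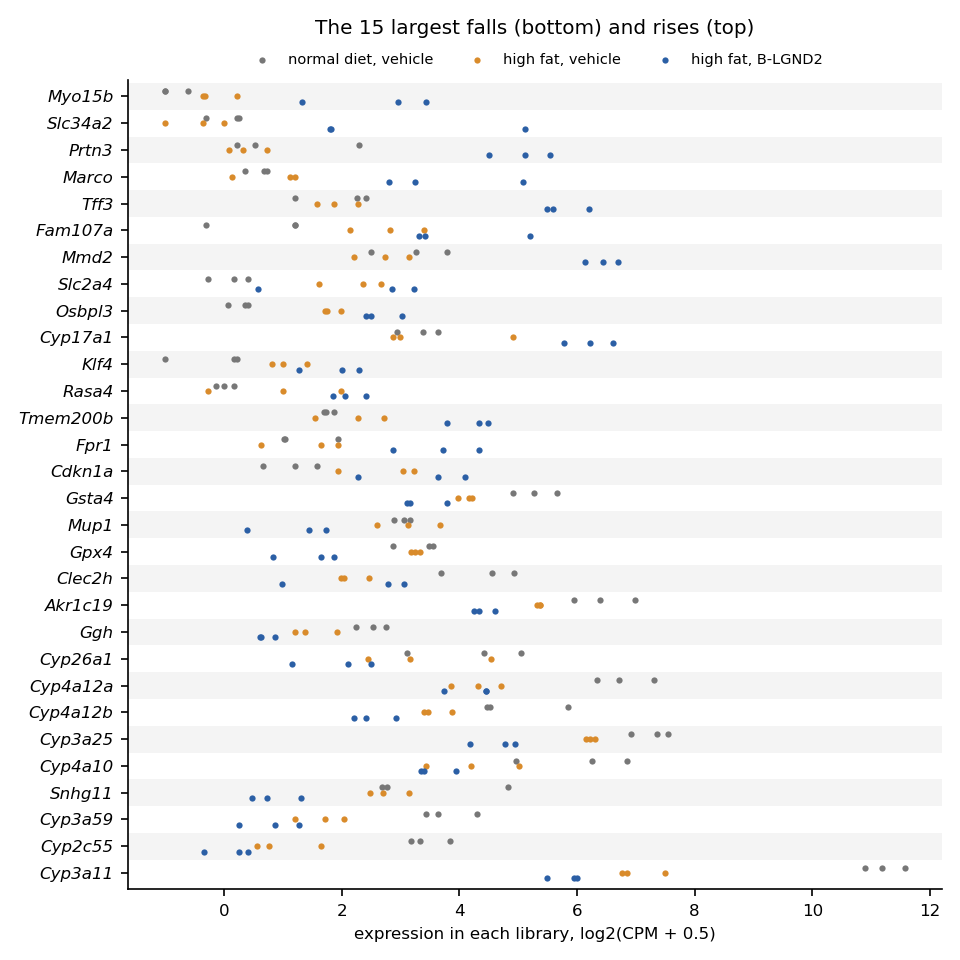
Levels in each library, as log2(CPM + 0.5) on the horizontal axis, of the 15 genes with the largest falls (lower rows) and the 15 with the largest rises (upper rows) chosen by rule; each point is a library, coloured by group. Cyp3a11 runs from 3050.3 CPM on normal diet to 44.6 with B-LGND2, and Tff3 from 1.82 to 73.6.

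Macrophage genes rose. All 17 members of a list of macrophage and Kupffer cell markers were tested: 12 were higher and 0 lower, against 1.59% higher among all genes. Their median log2 fold change was 1.52, and all 17 lay above 0. Summed over the list, the libraries held 424 to 683 CPM on normal diet, 417 to 543 in high fat vehicle livers and 1340 to 1670 with B-LGND2. The B-LGND2 libraries were therefore separate from both other groups, which overlapped each other; the median difference of high fat diet with vehicle was -0.15. In bulk liver, more cells of a type and more RNA per cell cannot be told apart. With the GC correction 14 members were higher and the median was 1.57. When a library was left out, 7 to 12 members were higher, with the fewest without normal diet replicate 2 (7) and without B-LGND2 replicate 2 (8).

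Cd5l (ENSMUSG00000015854, chr3:87357881-87371073), which encodes a protein secreted by Kupffer cells, stood at 95.8, 89.5 and 144 CPM on normal diet, 87.9, 74.4 and 108 in high fat vehicle livers and 346, 385 and 486 with B-LGND2. Every B-LGND2 library was far above every library of the other groups. The mean was 3.7 times that on normal diet (log2 fold change 1.89, SE 0.25, adjusted p = 0.000801). Csf1r, the receptor through which macrophages are maintained, had 21.7, 13.2 and 16.6 CPM on normal diet and 66.2, 49.3 and 79.1 with B-LGND2 (log2 fold change 1.92, edgeR adjusted p = 0.00113). The 3 chains of complement C1q moved alike. C1qa (ENSMUSG00000036887, chr4:136895917-136898803) had 38.4, 43 and 68.6 CPM on normal diet, 34.8, 33.2 and 43.5 in high fat vehicle livers and 226, 129.6 and 152 with B-LGND2 (log2 fold change 1.76, edgeR adjusted p = 0.00249). C1qb was at 1.52 (adjusted p = 0.00598) and C1qc at 1.69 (adjusted p = 0.00166), both by edgeR.

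Surface receptors of macrophages were among them. Cd14, the co-receptor for bacterial endotoxin, had 3.59, 2.98 and 2.21 CPM on normal diet, 5.28, 2.26 and 5.16 in high fat vehicle livers and 12, 14.1 and 12.8 with B-LGND2 (log2 fold change 2.15, edgeR adjusted p = 0.00467). Marco, a scavenger receptor gene, had 0.78, 1.16 and 1.11 CPM on normal diet and 6.49, 33.5 and 8.99 with B-LGND2, where replicate 2 was far above the others (log2 fold change 3.98, SE 0.62, adjusted p = 0.00342). Without that library its log2 fold change was 2.90 and still passed. Cd163, the haemoglobin scavenger receptor gene, was at 1.72 (adjusted p = 0.0186), Adgre1 (F4/80) at 1.64 (adjusted p = 0.025), the complement receptor gene Vsig4 at 1.29 (adjusted p = 0.0292), Clec4f at 1.08 (adjusted p = 0.035) and Mpeg1 at 0.81 (adjusted p = 0.0386). The members that did not pass were Folr2 at 1.00 (adjusted p = 0.0502), Timd4 at 1.03 (adjusted p = 0.132), Lyz2 at 1.02 (adjusted p = 0.149), Cd68 at 0.93 (adjusted p = 0.154) and Ctss at 0.60 (adjusted p = 0.28). Cd14 is also a member of the inflammation list, and Ctss of the class II list.

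The promoter of C1qb is printed as an example of this group, chr4:136886201-136886450 on the minus strand of GRCm38.p6, the 250 bases before the RefSeq start. Capitals mark GAGGAA on the same strand, 30 to 25 bases before the start, and AGGAAGT on the opposite strand, 53 to 47 bases before it. GAGGAAGT is a form of the purine-rich element that the macrophage factor PU.1 is known to bind, and the shorter spellings are parts of it.
C1qb: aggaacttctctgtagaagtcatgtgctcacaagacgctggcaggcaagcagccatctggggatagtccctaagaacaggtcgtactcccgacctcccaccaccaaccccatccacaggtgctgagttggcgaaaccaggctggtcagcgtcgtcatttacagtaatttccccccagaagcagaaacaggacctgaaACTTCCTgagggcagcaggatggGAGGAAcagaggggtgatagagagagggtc
GAGGAAGT was present in 1 of 13 matched markers (C1qc) and in 2.77% of 8823 genes. AGGAAGT was present in 4 of 13 (C1qb, C1qc, Folr2 and Lyz2) and 8.46%, and GAGGAA in 7 of 13 and 25.1%. Here too the list was chosen with earlier results known, and a match describes these letters only.

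Markers of other non-parenchymal cells were also checked. Of 11 liver endothelial markers, 3 were higher and 0 lower, against 1.59% and 1.33% of all genes, and the median was 0.42. They were Lyve1 at 1.37 (adjusted p = 0.0153), the cadherin gene Cdh5 at 1.02 (adjusted p = 0.0288) and the scavenger receptor gene Stab2 at 0.88 (adjusted p = 0.0407), by edgeR. None of the 3 passed without normal diet replicate 2 (adjusted p = 0.0736, 0.102 and 0.145), and Stab2 was at 0.47 with the GC correction (adjusted p = 0.306). Lyve1 was also lost without B-LGND2 replicate 2 (0.0554), and Cdh5 without normal diet replicate 3 or any B-LGND2 replicate (up to 0.081). Stab2 was kept in the fits without normal diet replicate 1 and without B-LGND2 replicate 2, and was lost in the other 7. Of 17 tested stellate cell and matrix genes, Tgfb1, which encodes a fibrogenic cytokine, was the 1 that passed, at 1.35 (adjusted p = 0.0292), and 15 of the 17 lay above 0, with a median of 0.55. Leaving out a library ended that call in 5 fits, with adjusted p values of 0.126 without normal diet replicate 2, 0.0547 without replicate 3, 0.0516 without high fat vehicle replicate 3, and 0.0968 and 0.0621 without B-LGND2 replicates 1 and 3. The collagen gene Col1a2 was at 1.45 (adjusted p = 0.0956).

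Of 5 tested erythroid markers 0 passed by edgeR or DESeq2 and 2 had an unadjusted p under 0.05; their summed level was 142 to 550 CPM on normal diet and 204 to 271 with B-LGND2. Alas2, the erythroid enzyme gene of haem synthesis, was at -0.52 (adjusted p = 0.235). Of 10 neutrophil markers only S100a9 was tested, at 0.34 (adjusted p = 0.796). Mpo had no count in any library, and Elane had 9 counts in total, 7 of them with B-LGND2. Of 14 lymphocyte markers 3 were tested and 0 passed in edgeR, 1 with an unadjusted p under 0.05 and 0 by DESeq2. Such a p was found for 19.4% of all genes. Pancreas markers were at 0 for 8 of 10 genes.

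Of 10 tested genes of inflammation, 2 were higher, against 1.59% of all genes: Cd14 and Vcam1, a leukocyte adhesion molecule of endothelium. Vcam1 stood at 7.17, 14.2 and 13 CPM on normal diet and 23.3, 25.6 and 26 with B-LGND2 (log2 fold change 1.12, edgeR adjusted p = 0.0309), and its call was kept without normal diet replicates 1 or 3 and lost without any other library (adjusted p of up to 0.076). The list's median was 0.74. Icam1 was at 0.84 (adjusted p = 0.0909). Of 7 class II antigen presentation genes 0 passed by edgeR or DESeq2, although all lay above 0 with a median of 0.66. An unadjusted p under 0.05 was found for 3 of them, against 19.4% of all genes.

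Of 24 tested genes of sterol synthesis and uptake, 4 were lower and 0 higher, against 1.33% lower among all genes; 21 of the 24 lay below 0, and the median log2 fold change was -0.67. The corresponding median for high fat diet with vehicle was -0.79. All 4 encode enzymes of the cholesterol pathway: Hmgcs1 makes HMG-CoA, Fdft1 squalene, and Cyp51 and Msmo1 remove methyl groups from lanosterol and its products. Hmgcs1 (ENSMUSG00000093930, chr13:119690379-119708260) stood at 94.4, 83.7 and 75.9 CPM on normal diet, 30.8, 66.9 and 30.8 in high fat vehicle livers and 18.7, 36.8 and 32.1 with B-LGND2 (log2 fold change -1.54, SE 0.31, adjusted p = 0.0165). Fdft1 (ENSMUSG00000021273, chr14:63145150-63179578) had 31.8, 31.3 and 26.3, 13.7, 22.9 and 18 and 12, 12.7 and 10.7 CPM in the same order (log2 fold change -1.33, edgeR adjusted p = 0.00946). Both were lower in every B-LGND2 library than in every normal diet library. Against high fat vehicle livers, Hmgcs1 overlapped and Fdft1 lay lower in each B-LGND2 library.

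Cyp51 had 148, 209 and 214 CPM on normal diet, 29, 82.7 and 40.1 in high fat vehicle livers and 74.4, 73.4 and 84.4 with B-LGND2 (edgeR log2 fold change -1.30, SE 0.31, adjusted p = 0.0309). Msmo1 was at -1.22 (adjusted p = 0.0271). Close to the threshold were Tm7sf2 at -0.91 (adjusted p = 0.0662), Sc5d at -0.79 (adjusted p = 0.0679) and Nsdhl at -1.33 (adjusted p = 0.0836). Fdft1 passed in every fit that left out a library. Hmgcs1 was lost without normal diet replicate 2 (adjusted p = 0.0555) or B-LGND2 replicate 1 (0.0882). Cyp51 was lost without normal diet replicates 2 or 3 (0.11 and 0.0829) or any B-LGND2 replicate (up to 0.128), and Msmo1 without normal diet replicate 2 (0.123) or any B-LGND2 replicate (up to 0.0942). Msmo1 was also lost with the GC correction (adjusted p = 0.0622), under which the list's median was -0.78. Over the list, 1 member was lower without normal diet replicate 2 or B-LGND2 replicate 1, 2 without B-LGND2 replicates 2 or 3, and 7 by DESeq2.

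The promoter of Hmgcs1 is printed because SREBP2 is known to act on it through a sterol regulatory element and neighbouring CCAAT boxes. The window is chr13:119690101-119690350 on the plus strand of GRCm38.p6, the 250 bases before the RefSeq start. Capitals mark TCACCCCAC, 137 to 129 bases before the start, and 3 matches to CCAAT, all on the opposite strand.
Hmgcs1: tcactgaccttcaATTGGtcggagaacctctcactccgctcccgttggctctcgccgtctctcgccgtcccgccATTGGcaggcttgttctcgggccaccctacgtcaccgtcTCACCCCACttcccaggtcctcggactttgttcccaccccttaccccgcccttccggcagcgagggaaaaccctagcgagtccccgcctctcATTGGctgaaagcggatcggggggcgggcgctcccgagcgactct
Among 16 sterol genes with a promoter entry, TCACNCCAC was found in 1 (Hmgcs1), against 1.37% of 8823 tested genes. CCAAT was found in 16 of 16, against 40.3% of the same 8823 genes. The list was chosen with earlier results of these data known, and a match describes these letters only. Of the 8 members without an entry, Fdft1 is the 1 that passed.

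In fatty acid synthesis, 1 of 18 genes passed, against 2.93% of all genes. Srebf1 (ENSMUSG00000020538, chr11:60199089-60222581), which encodes SREBP1, had 195, 222 and 139.6 CPM on normal diet, 199, 311 and 274 in high fat vehicle livers and 432, 332 and 394 with B-LGND2 (log2 fold change 1.06, SE 0.24, adjusted p = 0.0258). With the GC correction its log2 fold change was 0.63 (adjusted p = 0.101), and it was lost without normal diet replicates 2 (0.0555) or 3 (0.0663) and without B-LGND2 replicates 1 (0.0927) or 3 (0.0576). Targets of SREBP1 lay on both sides: the ATP citrate lyase gene Acly at -0.79 (adjusted p = 0.3), the desaturase gene Fads2 at 0.75 (adjusted p = 0.262) and Thrsp at 0.62 (adjusted p = 0.303). The list's median was 0.25.

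Of 23 genes for fatty acid oxidation and ketogenesis, 3 were lower, against 1.33% of all genes. They were Cyp4a12a and Cyp4a10, described above, and Hadhb, the beta subunit of the mitochondrial trifunctional protein. Hadhb stood at 5.15, 2.81 and 3.87 CPM on normal diet and 0.927, 1.18 and 1.33 with B-LGND2 (log2 fold change -1.79, edgeR adjusted p = 0.0315), a call that was lost in every fit that left out a library (adjusted p of 0.0527 to 0.105). The carnitine palmitoyltransferase gene Cpt1a was at 0.58 (adjusted p = 0.194) and Fgf21, a fasting hormone gene, at 2.25 (adjusted p = 0.0686). Of 27 nuclear genes of oxidative phosphorylation, 25 lay below 0 and the median was -0.42, beside -0.30 for high fat diet with vehicle. Atp5c1, the gamma subunit of ATP synthase, was the 1 that passed, at -1.19 (adjusted p = 0.025), and it was lost without B-LGND2 replicates 1 (0.0927) or 2 (0.0561). Lipoprotein genes had 0 of 16 that passed in edgeR, 3 with an unadjusted p under 0.05 and 3 by DESeq2. Among all genes these last 2 shares were 19.4% and 5.46%. Apoa4, an apolipoprotein gene of fat transport, was at 1.31 (edgeR adjusted p = 0.0599).

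Amino acid enzymes of the liver were represented by 5 falls in 2 lists, beside 1.33% lower among all genes. Cth, which cleaves cystathionine to cysteine, stood at 154, 144 and 211 CPM on normal diet, 166, 104 and 104 in high fat vehicle livers and 51, 65.8 and 59.8 with B-LGND2 (log2 fold change -1.53, SE 0.25, adjusted p = 0.00364). Its B-LGND2 libraries lay below all others, and the call held without any 1 library. Gclc, the catalytic subunit of glutathione synthesis, was at -0.94 (adjusted p = 0.0271); with Cth it made 2 of 11 sulphur amino acid genes. Of 17 amino acid and urea cycle genes 3 were lower: Oat (ornithine aminotransferase) at -1.18 (adjusted p = 0.0165), Otc (ornithine transcarbamylase) at -1.02 (adjusted p = 0.0407) and Gls2 (liver glutaminase) at -0.83 (adjusted p = 0.0431). Leaving out a library ended the call of Gclc in 5 fits, of Oat in 2, of Otc in 8 and of Gls2 in 9. B-LGND2 replicate 1 was common to these, with adjusted p values of 0.0838, 0.076, 0.155 and 0.131 without it. The other fits that ended a call were without B-LGND2 replicate 2 for Oat (0.0554), and without normal diet replicate 2 (0.0873), high fat vehicle replicate 2 (0.051) and B-LGND2 replicates 2 (0.0574) or 3 (0.0661) for Gclc. Otc was kept in the fit without B-LGND2 replicate 3 alone.

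Among genes that differ between the sexes in liver, 3 of 16 male-biased genes were lower (Cyp4a12a, Cyp4a12b and Mup1), against 1.33% of all genes. The median over that list was -0.35. Other male-biased genes lay on both sides: Mup3 was at -0.89 (adjusted p = 0.0541), the complement gene C6 at 0.69 (adjusted p = 0.116) and Hsd3b5 at 0.18 (adjusted p = 0.834). Of 15 female-biased genes 5 were tested, and Cyp17a1 was the 1 that passed. Cyp17a1 (ENSMUSG00000003555, chr19:46667165-46673172) encodes the 17-alpha-hydroxylase of steroid synthesis. It stood at 7.17, 9.92 and 11.9 CPM on normal diet, 7.42, 29.5 and 6.83 in high fat vehicle livers and 54.7, 97.6 and 73.8 with B-LGND2. Every B-LGND2 library was above every other library, and the mean was 7.8 times that on normal diet (log2 fold change 2.96, SE 0.48, adjusted p = 0.00657). Without normal diet replicate 3 its adjusted p was 0.0612.

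In the growth hormone axis, 1 of 11 genes passed, against 2.93% of all genes, and the list's median was 0.05. Socs3 (ENSMUSG00000053113, chr11:117966079-117970047), an inhibitor of cytokine signalling, had 13.6, 12.7 and 14.7 CPM on normal diet, 49, 41.8 and 27.7 in high fat vehicle livers and 60.1, 40.6 and 111 with B-LGND2 (log2 fold change 2.36, SE 0.33, adjusted p = 0.00117; 1.53 for high fat diet with vehicle). Both high fat groups lay above normal diet and overlapped each other. The growth hormone receptor gene Ghr was at -0.35 (adjusted p = 0.336) and Igf1 at -0.24 (adjusted p = 0.579).

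**Figure D4:**
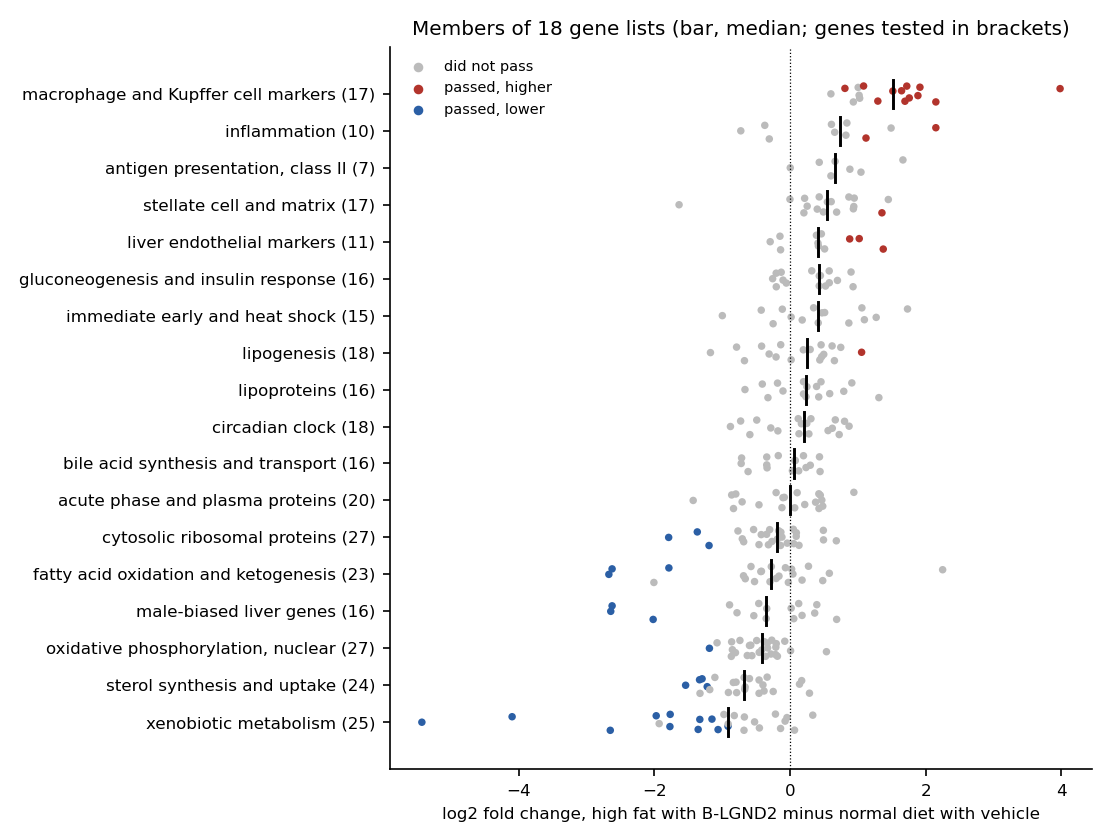
Each point is a member of 1 of 18 gene lists, with its log2 fold change between high fat B-LGND2 and normal diet vehicle livers on the horizontal axis; black bars are medians, colours mark members that passed, and the number tested is in brackets. Macrophage markers, with a median of 1.52, lie to the right of 0 without exception, and 23 of 25 xenobiotic metabolism genes lie to the left.

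The largest rises also included genes of other kinds. Tff3 (ENSMUSG00000024029, chr17:31125306-31129646), a trefoil factor secreted by epithelia, was part of a list of estrogen-responsive liver genes. It stood at 4.83, 1.82 and 4.29 CPM on normal diet, 2.47, 3.16 and 4.32 in high fat vehicle livers and 44.6, 47.8 and 73.6 with B-LGND2. Both vehicle groups overlapped and the B-LGND2 libraries were 15.2 times higher on average than normal diet (log2 fold change 3.90, SE 0.35, adjusted p = 2.18e-05). Of the 6 tested members of that list Tff3 was the 1 that passed, against 2.93% of all genes. The leukemia inhibitory factor receptor gene Lifr was at 0.37 (adjusted p = 0.493) and the angiotensinogen gene Agt at 0.28 (adjusted p = 0.531). Mmd2 (ENSMUSG00000039533, chr5:142562358-142608800) had 5.15, 9.1 and 13.3, 4.12, 6.17 and 8.36 and 70.2, 103 and 86.8 CPM in the same order (log2 fold change 3.23, SE 0.33, adjusted p = 8.29e-05), the same pattern of separate B-LGND2 libraries. Prtn3 (ENSMUSG00000057729, chr10:79874476-79883174), a granule protease gene of myeloid cells, had 0.936, 0.662 and 4.43, 1.15, 0.752 and 0.558 and 34.2, 45.9 and 22.1 CPM (log2 fold change 4.03, SE 0.50, adjusted p = 0.000609). Its model shares a stretch with that of Plppr3, and without a stated strand setting their reads cannot be told apart. Calls of Tff3, Mmd2 and Prtn3 held in all fits.

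Fpr1, a receptor of phagocytes for formyl peptides, had 1.56, 3.31 and 1.52 CPM on normal diet, 2.64, 1.05 and 3.35 in high fat vehicle livers and 6.84, 12.7 and 19.7 with B-LGND2 (log2 fold change 2.61, edgeR adjusted p = 0.00896). Tmem200b was at 2.65 (adjusted p = 0.000891), with vehicle levels of 2.91 ± 0.206 CPM on normal diet and 4.28 ± 1.85 in the high fat vehicle group. In Osbpl3 and Cdkn1a every high fat vehicle library also exceeded every normal diet library; that difference passed for Osbpl3 (edgeR adjusted p = 0.0289) and not for Cdkn1a (0.0575). The sterol-binding protein gene Osbpl3 had 0.78, 0.827 and 0.553 CPM on normal diet, 3.46, 2.86 and 2.79 in high fat vehicle livers and 7.65, 5.15 and 4.83 with B-LGND2 (edgeR log2 fold change 3.02, SE 0.43, adjusted p = 0.00145). The cell cycle inhibitor gene Cdkn1a had 1.09, 1.82 and 2.49, 7.75, 8.87 and 3.35 and 11.9, 16.6 and 4.33 CPM (edgeR adjusted p = 0.0132). It was lost without normal diet replicate 2 (0.0597) or B-LGND2 replicates 1 (0.0619) or 2 (0.0518).

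Fam107a was at 3.81 (adjusted p = 0.00807), and its adjusted p was 0.0566 without normal diet replicate 3. The transcription factor gene Klf4 was at 2.94 (adjusted p = 0.0292), the Ras regulator gene Rasa4 at 2.88 (adjusted p = 0.0288) and Slc2a4, which encodes the insulin-responsive glucose transporter GLUT4, at 3.16 (adjusted p = 0.021). Omitting a library ended these 3 calls in 4 or 5 of 9 fits, in each case in those without normal diet replicates 2 or 3 or B-LGND2 replicate 1. The adjusted p reached 0.119 for Klf4, without that B-LGND2 replicate, and 0.102 and 0.0942 for Rasa4 and Slc2a4, without normal diet replicate 2. Klf4 was also lost without B-LGND2 replicate 3 (0.0623), Slc2a4 without replicate 2 (0.0715), and Rasa4 without either (0.0548 and 0.0769). In Fam107a, Klf4 and Slc2a4 every high fat vehicle library exceeded every normal diet library, and in Rasa4 these groups overlapped. For the first 3 that difference was 2.36, 1.93 and 2.81 (edgeR adjusted p = 0.0659, 0.13 and 0.0382). Slc2a4 had 4.62, 2.56 and 5.85 CPM in high fat vehicle livers, within the B-LGND2 range of 0.999 to 8.83.

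For 2 rises the size rests on few counts or 1 library. Normal diet libraries held 1, 0 and 0 counts of Myo15b, whose level with B-LGND2 was 7.3, 10.3 and 2 CPM, so its fitted value (log2 fold change 6.57, SE 0.91, adjusted p = 0.00113) depends on the prior count. Slc34a2, a phosphate transporter gene, had 0.312, 0.662 and 0.692 CPM on normal diet and 3.01, 34 and 3 with B-LGND2 (log2 fold change 4.53, SE 1.01, adjusted p = 0.0321). Without B-LGND2 replicate 2 its log2 fold change was 2.39 (adjusted p = 0.0892), and it was also lost without any normal diet replicate (0.117, 0.107 and 0.204) or high fat vehicle replicate 1 (0.0511).

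The receptor that the compound is named for was not detected. Esr2, encoding estrogen receptor beta, had no count in any of the 9 libraries. A count of 0 allows up to 3 per library, a floor that covers counting error only and not reads lost in the assignment to genes. Esr1, encoding estrogen receptor alpha, stood at 23.6, 25.8 and 28.9 CPM on normal diet, 22.9, 16.1 and 11.4 in high fat vehicle livers and 27.6, 37.2 and 44.5 with B-LGND2 (edgeR log2 fold change 0.48, SE 0.27, adjusted p = 0.34), with overlap between normal diet and B-LGND2. The 2 estrogen-related receptor genes that were tested, Esrra at -0.04 (adjusted p = 0.949) and Esrrg at -0.42 (adjusted p = 0.683), did not pass. Esrrb, with 27 counts over all 9 libraries, and the estrogen receptor gene Gper1, with 3, were too low to be tested. Esrrg stood at 2.03, 1.82 and 0.692 CPM on normal diet, 6.1, 7.22 and 6.83 in high fat vehicle livers and 1.27, 0.883 and 1.17 with B-LGND2, so the high fat vehicle libraries were highest (2.16 against normal diet, edgeR adjusted p = 0.0206). By DESeq2 too, 0 of the 3 tested receptor genes passed, and 0 had an unadjusted p under 0.05 in edgeR.

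In lists of liver zonation, 1 of 10 pericentral genes was lower (Oat) and 2 of 10 periportal genes (Gls2 and Hsd17b13), against 1.33% of all genes. Hsd17b13, a lipid droplet enzyme gene, had 123, 162 and 148 CPM on normal diet, 148, 154 and 128 in high fat vehicle livers and 64.5, 96.1 and 62.8 with B-LGND2 (log2 fold change -0.96, edgeR adjusted p = 0.0307). Its B-LGND2 libraries lay below all others, but the call was kept only without normal diet replicates 1 or 3 or B-LGND2 replicate 2, with an adjusted p of up to 0.126 in the other fits. Of 18 lipid droplet and fatty acid uptake genes 0 passed in edgeR, 4 had an unadjusted p under 0.05, and DESeq2 called 2; Lpl, encoding lipoprotein lipase, was at -1.11 (adjusted p = 0.053). Lists of bile acid synthesis, acute phase proteins, complement, the unfolded protein response, interferon response and iron had 0 members that passed in edgeR. In that order, 2, 3, 2, 4, 4 and 5 members had an unadjusted p under 0.05, and DESeq2 called 1, 0, 0, 1, 1 and 1. Over all genes these shares were 19.4% and 5.46%.

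Several lists that cover daily rhythm and hormonal state had few calls in this comparison. Of 18 circadian clock genes, 16 gluconeogenesis genes and 15 immediate early and heat shock genes, 0 passed in edgeR. An unadjusted p under 0.05 was found for 6, 3 and 4 of them, against 19.4% of all genes, and DESeq2 called 1, 0 and 1, against 5.46%. Their medians were 0.21, 0.43 and 0.42, beside 0.54, 0.86 and 0.89 for high fat diet with vehicle; the clock median turned to -0.05 with the GC correction. Of the cytosolic ribosomal protein genes, Rps14 was at -1.79 (adjusted p = 0.00831) and Rpl32 at -1.19 (adjusted p = 0.045), both lower by edgeR. These genes have many near-identical retrocopies, so their counts are uncertain. Neither passed when B-LGND2 replicate 1 was left out (adjusted p = 0.0599 and 0.19), and Rpl32 was kept without normal diet replicate 1 or B-LGND2 replicate 3 alone.

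Fold changes followed the base composition of transcripts. GC content of the longest transcript and log2 fold change had a Spearman rho of 0.411 over 10824 protein-coding genes, a description only, since genes are not independent. Transcripts of higher genes had a median GC content of 54.6% and those of lower genes 44.2%, against 49.8% over all. Of 5 bins of nearly equal size, the bin with 31 to 44% GC held 8 higher and 75 lower genes, and the bin with 55.5 to 68.7% held 77 higher and 6 lower. Of all libraries, B-LGND2 replicate 1 followed GC content most: its deviation from the mean correlated with GC content at 0.521 across genes. That correlation was 0.0825 and 0.0466 in B-LGND2 replicates 2 and 3. It was -0.162, -0.262 and -0.203 in the normal diet libraries and -0.0986, -0.075 and -0.0184 in the high fat vehicle libraries. Its sign was thus positive in every B-LGND2 library and negative in every other library. When a term for GC content and length was fitted per library, rho was 0.00489 and the end bins held 22 higher and 32 lower, and 44 higher and 27 lower. The number of genes that passed was then 351, of which 246 had passed before. Of the 58 genes named by rule that passed, 9 no longer did: Clec2h, Srebf1, Msmo1, Hsd17b13, Hadhb, Slc34a2, Stab2, Otc and Cyp26a1. The others, Cyp3a11, Cd5l and Tff3 among them, still passed.

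**Figure D5:**
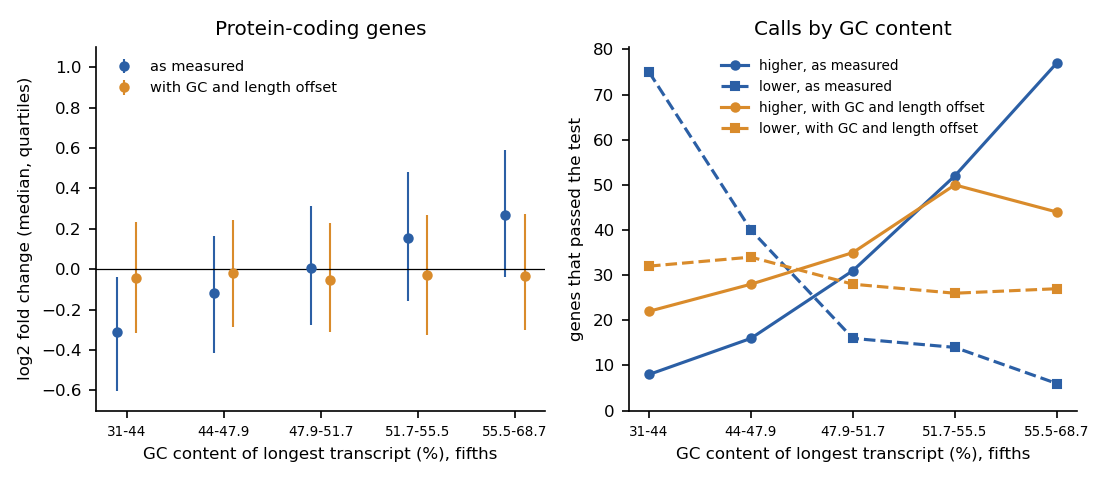
Protein-coding genes in 5 bins of transcript GC content (horizontal, percent), with medians and quartiles of the log2 fold change (left) and numbers of genes that passed (right), as measured in blue and with the GC and length term in orange. As measured, the median climbs from -0.31 in the lowest bin to 0.27 in the highest, and with the term all 5 medians lie near 0.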

How the data were processed

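Poly(A)-selected liver RNA was sequenced on an Ion Torrent Proton, per the labels' protocols. The authors deposited unnormalized counts of reads per gene. The submitters' processing notes name HTSeq 0.6.1p1, TopHat2 2.0.13, Bowtie2 2.2.4, DESeq2 1.6.3 and SAMtools 0.1.19, with build GRCm38.p3; the sources used here do not give the annotation release, strand setting or assignment mode. Symbols and coordinates (1-based) came from GENCODE M21 (44671 of 45513 gene IDs matched), and promoters from RefSeq.

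In R 4.3.3, filterByExpr of edgeR 4.0.16 removed low genes (minimum count 10), and 23996 genes had no count at all. One robust quasi-likelihood model with TMM scaling was fitted to all 9 libraries (6 residual degrees of freedom), with Benjamini-Hochberg adjustment over 12102 genes and a two-sided threshold of 0.05. It was tested on simulated data, where 27 of 99 planted changes of 1 on the log2 scale passed. Of those of 2 on that scale, 88 of 100 passed, and the run gave 9 false calls. A gene that did not pass may therefore still differ. Each SE is the absolute log2 fold change divided by the square root of the test's F statistic, not a separate estimate. Depth limits precision: intervals and floors (3 counts) cover counting error only. No library was a copy of another: chi-square per degree of freedom was at least 11.8 for each pair.

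Members and lists were chosen with earlier results of these data known. Genes were named by rule: the 15 largest rises and falls among protein-coding genes that passed, did not overlap and averaged log2 CPM 1 or more, without predicted genes and clone names; per list, up to 4 members that passed with the smallest p, or else the lowest p; estrogen and estrogen-related receptors; and the 5 genes with the lowest p. Other members were named after their values were seen. A named gene is not reported here. Alternatives were other scalings and filters, DESeq2 1.42.0, limma 3.58.1 (voom), fewer groups, non-robust dispersions, a replicate block, a loess offset on GC content and length, and leaving out libraries.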

Additional observations from a re-analysis of the deposited data

How the results depend on the processing

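Against 354 genes in the comparison of high fat B-LGND2 with normal diet vehicle, 751 passed without a filter on low counts. By the DESeq2 Wald test 660 passed, and by edgeR 144 when only the 2 groups compared entered the fit. That fit has fewer degrees of freedom, and its spread is no longer shared with the high fat vehicle libraries. Chi-square per degree of freedom was 11.8 to 16.32 between pairs of high fat vehicle libraries. It was 27.39 to 83.89 between normal diet pairs and 24.14 to 43.32 between B-LGND2 pairs. Which of these lowered the number was not tested. Leaving out 1 library gave 111 to 639. Leaving out B-LGND2 replicate 1 and normal diet replicate 1 together, an alternative added after the data were seen, gave 339, of which 173 were among the 354. DESeq2 size factors (357), no scaling (266), a filter of 50 counts (286), limma-voom (324), dispersions without the robust option (342) and the GC and length offset (351) stayed within 1.5 times. The share of higher genes moved from 54.5% to 38.7% without normal diet replicate 2 and to 61.5% without B-LGND2 replicate 1; the cause was not tested. With the replicate number as a block 253 genes passed, of which 236 were among the 354, and with the block and the GC and length offset 230. Libraries with the same number deviated together at correlations of -0.193, 0.0578 and -0.073, and not every library correlated best with its own number, so the numbers were not taken as a pairing. Of the 58 named genes that passed, 28 passed in all 9 fits without a library and 27 under every alternative that gave a value; 5 lost their call with the block (Hadhb, Stab2, Otc, Gls2 and Rpl32), and none changed direction. The difference in rRNA share was 1.76 to 2.7 percentage points without a library. The difference in mitochondrial share turned from -1.45 to 1.53 percentage points without normal diet replicate 1, which also sets the large SD of that group. Depth limits genes such as Myo15b and Slc34a2, with few counts on normal diet.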

Other observations

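Gene families were taken by symbol over all protein-coding genes tested and chosen after the values were seen. Their counts describe these members only and do not measure how wide the fall was. For comparison, edgeR called 1.33% of all genes lower. Of 57 cytochrome P450 genes 17 were lower and 1, Cyp17a1, was higher by edgeR, with a median log2 fold change of -0.58. Beyond those in the report, Cyp2c54 (-1.47), Cyp2c50 (-1.45) and Cyp2c37 (-1.31), which hydroxylate fatty acids and drugs, and Cyp2r1 (-1.18), a vitamin D 25-hydroxylase, were lower. The number lower was 11 with the GC and length offset, without normal diet replicate 2 and without B-LGND2 replicate 3. Of 16 UDP-glucuronosyltransferase genes 3 were lower (Ugt2b5, Ugt2b35 and Ugt2b36), a number that stayed at 3 in each fit without a library. Of 14 carboxylesterase genes 4 were lower: Ces2a, Ces2c, Ces1f (-1.48) and Ces1g (-1.49). Of 13 major urinary protein genes 4 were lower (Mup1, Mup9, Mup11 and Mup17), and 12 lay below 0; without B-LGND2 replicate 1 the number was 1.

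Of 45 genes of respiratory complex I, 41 lay below 0, with a median of -0.49, beside -0.57 for high fat diet with vehicle. Ndufa11 (-1.33), Ndufb11 (-1.18) and Ndufs8 (-0.98) were lower; the number was 1 without normal diet replicate 3 and without B-LGND2 replicates 1 or 2, 2 without normal diet replicate 2 or any high fat vehicle replicate, and 5 without normal diet replicate 1. Of 17 collagen genes 0 passed in edgeR, 6 had an unadjusted p under 0.05, and 2 were higher by DESeq2. Among all genes, 19.4% had such a p and DESeq2 called 5.46%.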
